A study of Homo sapiens with 12 samples.

Results

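Cellular zinc is set by 2 families of membrane proteins and by a sensor of metal in the nucleus, and 10 of these genes are described here across 12 RNA libraries. They are the exporters SLC30A1 and SLC30A10, the importers SLC39A4, SLC39A5, SLC39A6, SLC39A7, SLC39A8, SLC39A10 and SLC39A14, and MTF1, the metal-sensing transcription factor. They were taken by name from the 47634 gene IDs listed for each library, with the ID version removed and the ID matched to a symbol, and all 10 were found. The choice used no measured value as a threshold, but it was made with earlier results of these data known.

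All samples were HepG2, a human hepatocellular carcinoma line that retains many hepatocyte functions. The 4 groups were ATP7B knockout (KO) cells given copper for 24 h, untreated ATP7B KO cells, wild type cells given copper for 24 h and untreated wild type cells, with 3 libraries labelled as biological replicates in each. ATP7B is the ATPase that pumps copper out of hepatocytes and is defective in Wilson disease, the disease the study addresses. The labels name 1 KO line and give neither the copper dose nor the edited site, so the KO cannot be told apart from other differences between that line and the wild type line.

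SLC30 proteins (ZnT) move zinc out of the cytosol, across the plasma membrane or into organelles, and SLC39 proteins (ZIP) move it into the cytosol. When cytosolic zinc rises, MTF1 binds metal response elements in promoters and activates metallothioneins, small cysteine-rich proteins that bind zinc and copper, and the exporter SLC30A1. Liver cells use SLC39A14 to take up zinc, iron and manganese, and SLC30A10, in spite of its family name, is known as an exporter of manganese.

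The core of the metal response element was searched in promoters, and the sequences below show it in 2 known target genes of MTF1. It was searched as TGCACNC or TGCGCNC on both strands in the 250 bases before each RefSeq gene start (GRCh38.p14), where 24.8% of 35116 promoters hold at least 1 match and 1.58% hold at least 3. Of the 10 genes, 8 were in the promoter table, and 3 of these 8 had a match, namely SLC30A1, SLC39A6 and SLC39A8, the last in 1 of its 3 promoters. The 8 genes have 13 promoters, and each of the 3 genes has its match in 1 promoter. The 24.8% is a share of promoters, so it stands beside 3 of 13 promoters and cannot be set against 3 of 8 genes. MTF1 itself had none in this window. Of 13 metallothionein genes 5 were in the table, and all 5 had a match. The SLC30A1 promoter, chr1:211579162-211579411 on the minus strand, has 1 match, which starts 49 bases before the gene start and reads on the opposite strand, and MT1X, chr16:56682220-56682469 on the plus strand, has 4. Both are printed from 5′ to 3′ along the gene's strand, and capitals mark the motif. A match in the letters is not a measurement of binding.
SLC30A1: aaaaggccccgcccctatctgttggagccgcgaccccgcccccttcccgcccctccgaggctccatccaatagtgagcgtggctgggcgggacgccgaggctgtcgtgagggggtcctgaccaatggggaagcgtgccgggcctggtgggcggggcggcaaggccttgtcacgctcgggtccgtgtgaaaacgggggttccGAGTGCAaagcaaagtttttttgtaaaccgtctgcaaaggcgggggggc
MT1X: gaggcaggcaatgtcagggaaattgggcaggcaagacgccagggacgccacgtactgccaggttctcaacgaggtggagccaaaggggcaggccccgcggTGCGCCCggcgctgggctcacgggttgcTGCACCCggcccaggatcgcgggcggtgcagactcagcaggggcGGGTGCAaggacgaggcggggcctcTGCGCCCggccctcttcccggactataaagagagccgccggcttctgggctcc

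The libraries were 3′ tag libraries, in which a transcript gives about 1 fragment whatever its length. Levels are therefore given as CPM, the count of a gene over the total of its library scaled to the usual common depth, and are compared between genes without a length correction. Totals were 2388597 to 2807634 counts in KO copper libraries, 976658 to 3277087 in KO untreated libraries, 1873703 to 2581954 in wild type copper libraries and 3561723 to 3829151 in wild type untreated libraries. A count of 3, used as the limit that a count of 0 allows, equals 3.07 CPM in the shallowest library and 0.783 CPM in the deepest. KO untreated replicates 1 and 2 and wild type copper replicate 1 stood apart. Their scores on principal component 1, which held 44.2% of the variance, were 111, 120.4 and 23.9, against -44.8 to -4.39 in the other 9 libraries, and they were the 3 shallowest, at 976658 to 1873703 counts. The part of depth or of the mitochondrial share in the results below was not tested. The label of the line was checked against 9 marker genes of hepatocytes and HepG2. Their summed level was 3693 to 3924 CPM in KO copper, 8709 to 10340 in KO untreated, 9579 to 10350 in wild type copper and 20020 to 20720 in wild type untreated libraries. Mitochondrially encoded genes took 8.34 to 9.46% of counts in KO copper, 5.82 to 8.85% in KO untreated, 6.58 to 8.59% in wild type copper and 2.97 to 3.80% in wild type untreated libraries. Among the 9 hepatocyte and HepG2 markers the glypican GPC3 averaged 22.4 CPM in KO copper and 32.4 CPM in KO untreated cells, against 1029.5 CPM in wild type copper and 1806 CPM in wild type untreated cells. Summed markers of fibroblasts (4 genes) reached 48.2 CPM, those of endothelium (2 of 3 genes matched) 10.2 CPM and those of leukocytes (4 genes, CD3E at 0 throughout) 23.5 CPM in the highest library. ATP7B itself had 3.92, 4.19 and 6.77 CPM in KO copper libraries, 9.01, 2.05 and 11.6 in KO untreated libraries, 5.34, 3.92 and 3.87 in wild type copper libraries and 12.7, 13.1 and 12.4 in wild type untreated libraries. The KO against wild type log2 difference was 0.15 in copper (edgeR adjusted p = 0.86) and -0.75 in untreated cells (0.15), and since a 3′ tag may lie outside the edited part, this neither bears out nor goes against the KO label. In bulk RNA, fewer cells of a kind and less RNA per cell cannot be told apart.

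In copper, 5 of the 9 genes that could be tested changed in wild type cells and 8 of 9 changed in KO cells. MTF1 rose and SLC39A14, SLC39A5 and SLC30A10 fell in both lines, SLC39A4 fell in wild type cells, and in KO cells SLC30A1 and SLC39A6 rose and SLC39A7 and SLC39A10 fell. Between the lines, SLC39A5, SLC39A6 and SLC39A14 were lower in KO than in wild type untreated cells, and SLC39A7 was lower in KO than in wild type cells in copper. "Rose", "fell" and "changed" mean an adjusted p under 0.05 by edgeR's quasi-likelihood test, with Benjamini-Hochberg adjustment over the 11051 genes tested, and this is the adjusted p given throughout. Fold changes are log2 with their standard error (SE). SLC39A8 was under the filter on low counts and is described by its counts and by the fit without that filter.

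These counts stand against the share of all 11051 tested genes that changed. Copper in KO cells raised 3 of the 9 genes and lowered 5, where 33.7% of all genes changed, 15.2% upward and 18.5% downward. In wild type cells copper raised 1 and lowered 4, where 14.9% of all genes changed, 8.23% upward and 6.68% downward. The median log2 fold change of the 9 genes was -1.03 in KO cells and -0.05 in wild type cells, against 0.01 and -0.03 over all tested genes. Comparing the lines in copper gave 0 genes higher and 1 lower in KO cells, where 13.8% of all genes differed, 5.77% higher and 8.03% lower, and the median was -0.49 against 0.05 over all genes. By DESeq2 the counts in copper were 1 higher and 2 lower, where 2022 of all genes were called, and by limma voom 1 and 1, where 1628 were. By edgeR 6 of 9 had an unadjusted p under 0.05, and the share of all genes that did was not computed. In untreated cells 0 were higher and 3 lower in KO cells, where 31.9% of all genes differed, 17.9% higher and 14.0% lower, and the median was -0.13 against -0.02. DESeq2 and limma voom gave the same 0 and 3, where they called 4082 and 3630 of all genes. By edgeR 3 had an unadjusted p under 0.05, again without a share of all genes. The copper effect differed between the lines for 1 of 9 genes, downward in KO cells, where it did for 4.93% of all genes, 1.26% upward and 3.67% downward.

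Several of these counts turned on single libraries. The 5 calls with copper in wild type cells became 1 or 2 when a wild type untreated library, or wild type copper replicate 1 or 2, was dropped, and the 8 in KO cells became 5 without KO copper replicate 1. The 1 call between the lines in copper became 0 without any of the KO copper replicates, 2 without KO untreated replicate 1 or 2 and 6 without KO untreated replicate 3. The 3 calls between untreated lines became 2 without wild type untreated replicate 2 or 3 or KO untreated replicate 1, and 8 without KO untreated replicate 3. The 1 difference of copper effects became 0 without any of 10 libraries and 6 without KO untreated replicate 3. When KO untreated replicate 3 is left out, the pair of libraries that stood apart is all that represents its group. The counts over all genes moved in the same fits. For copper in wild type cells 1648 became 736 to 1029, and for copper in KO cells 3721 became 2373. Between the lines in copper 1525 became 673 to 768 without a KO copper replicate. Without KO untreated replicate 3, 3563 of 11429 genes were called between the lines in copper, 6738 between untreated lines and 5888 for the difference of copper effects.

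A fit chosen after seeing the data left out the 3 libraries that stood apart. It called 7 of the 9 genes with copper in KO cells, where 39.6% of 11955 tested genes changed, and 6 with copper in wild type cells, where 40.0% did. Comparing the lines, it called 6 in copper, where 37.9% of all genes differed, and 5 in untreated cells, where 34.5% did. The difference of copper effects gave 0 calls among the 9, against 8.77% of all genes. KO untreated cells are then represented by replicate 3 alone, which is assumed to vary like the other groups, although KO untreated replicates were the least alike (r = 0.798 to 0.927 over log2 CPM, against 0.910 to 0.988 in the other groups).

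**Figure D1:**
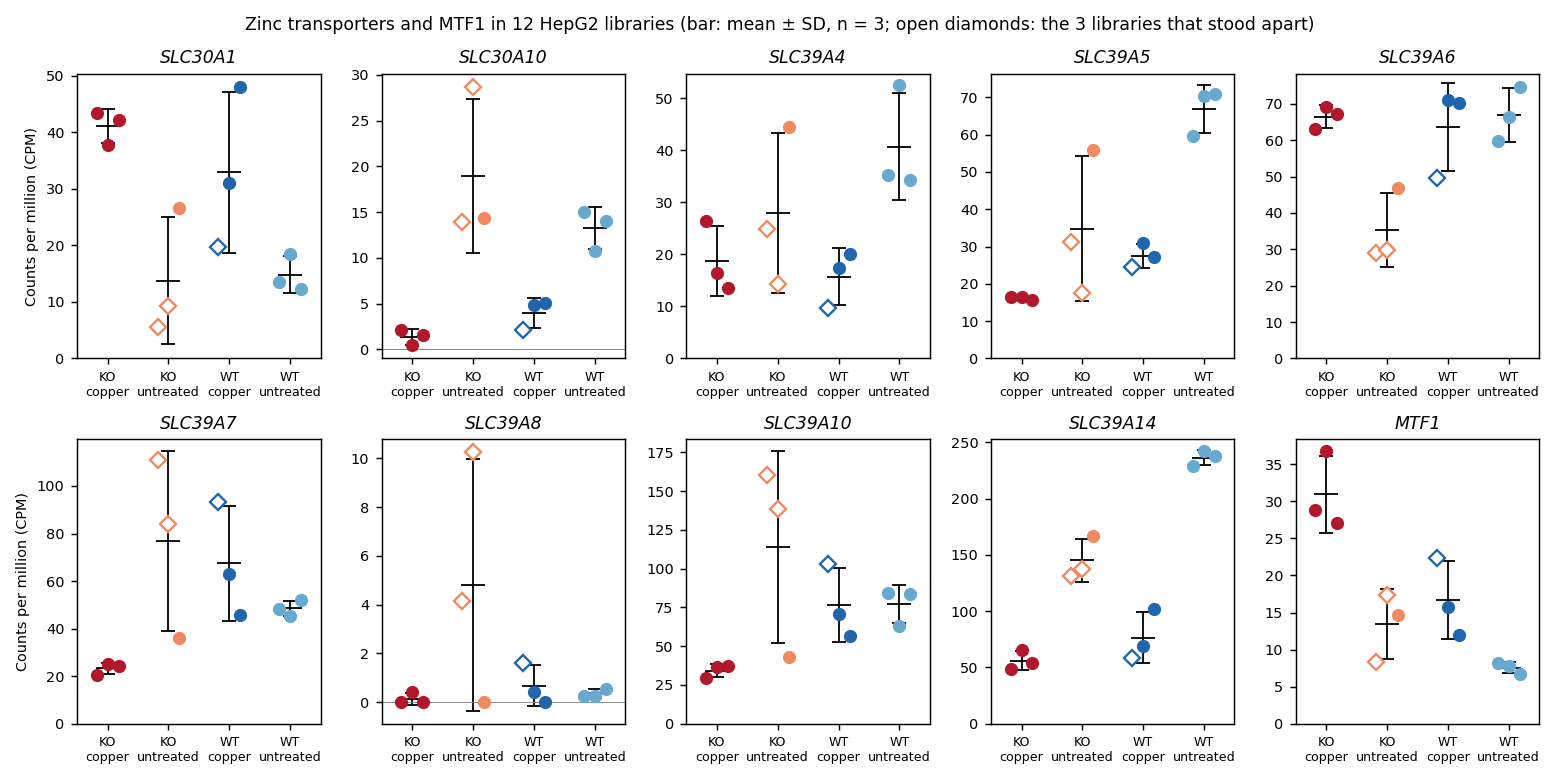
CPM of the 10 genes in each library, in the order KO copper, KO untreated, wild type copper and wild type untreated, with a point per library, a line and bar at each mean ± SD (n = 3) and open diamonds for the 3 libraries that stood apart. SLC39A14 is lower in copper in both lines, and the diamonds lie above the filled points of their group for SLC39A7, SLC39A8 and SLC39A10.

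SLC30A1 (ZnT1), the plasma membrane zinc exporter whose promoter with 1 motif match is printed above, rose with copper in KO cells. It had 43.5, 37.7 and 42.2 CPM in KO copper libraries, against 5.54, 9.22 and 26.5 CPM in KO untreated libraries. In wild type cells it had 19.7, 30.9 and 48.0 CPM with copper, against 13.4, 18.5 and 12.4 CPM in wild type untreated libraries. The copper and untreated libraries did not overlap in either line, though in wild type cells the gap between 19.7 and 18.5 CPM was small. The log2 fold change was 1.59 ± 0.45 in KO cells (adjusted p = 0.017) and 1.18 ± 0.43 in wild type cells (0.084). The lowest KO untreated values and the lowest wild type copper value were in the libraries that stood apart. Without those libraries it rose in both lines, by 0.81 in KO cells (adjusted p = 0.0069) and by 1.48 in wild type cells (2.5e-07). The KO call ended without KO untreated replicate 1, KO untreated replicate 2 or KO copper replicate 1 (adjusted p = 0.051 to 0.053), and with the compared groups alone in the fit (0.062). The wild type fold change passed the threshold by DESeq2 (0.045), without the filter on low counts (0.0080), with the compared groups alone (0.019) and without KO untreated replicate 1 (0.040) or replicate 3 (0.0028). The copper effect in KO minus that in wild type cells was called without KO untreated replicate 3 (1.32, 0.046) and was -0.67 (0.20) without the libraries that stood apart.

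SLC30A1 did not separate the lines. Its mean was 41.1 ± 3.04 CPM in KO copper and 32.9 ± 14.2 in wild type copper cells, and 13.8 ± 11.2 in KO untreated and 14.8 ± 3.30 in wild type untreated cells (SD, n = 3 each). The KO against wild type log2 differences were 0.28 in copper (adjusted p = 0.69) and -0.13 in untreated cells (0.84). Without KO untreated replicate 3 the untreated difference was -1.10 and was called (0.047), the KO untreated group then being the pair of libraries that stood apart, and without those it was 0.64 (0.051). The sign of this difference thus turned on which KO untreated libraries were used.

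SLC30A10 (ZnT10), the manganese exporter, fell with copper in both lines. It had 2.14, 0.419 and 1.59 CPM in KO copper libraries, against 13.9, 28.7 and 14.3 CPM in KO untreated libraries. In wild type cells it had 2.13, 4.79 and 5.03 CPM with copper, against 15.0, 10.7 and 14.0 CPM in wild type untreated libraries. In each line every copper library was below every untreated library. The level in KO copper cells rests on 11 counts in all, and in wild type copper cells on 28, against 95 and 148 in the untreated groups. SLC30A10 fell by 3.53 ± 0.51 in KO cells (adjusted p = 0.00046) and by 1.67 ± 0.44 in wild type cells (0.024). The fall in KO cells held whichever library was left out, and without the libraries that stood apart it was -3.12 (6.8e-07). The fall in wild type cells lost its call in 5 of the fits without 1 library, each of which dropped 1 wild type library, either untreated or copper replicate 1 or 2 (adjusted p = 0.052 to 0.087).

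In copper SLC30A10 was at -1.52 ± 0.57 in KO against wild type cells (adjusted p = 0.097) and the libraries touched, with 2.14 CPM the highest in KO and 2.13 CPM the lowest in wild type. This difference was called without the libraries that stood apart, at -1.84 (0.0044), and without KO untreated replicate 3, at -1.58 (0.042). In untreated cells it was 0.34 (0.52). The copper effect in KO minus that in wild type cells was -1.86 (0.10). It was -2.16 and called (0.014) without KO untreated replicate 3, and -1.76 (0.061) without the libraries that stood apart.

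The 7 importers together summed to 215 ± 12.9 CPM in KO copper, 439 ± 49.1 in KO untreated, 328 ± 10.2 in wild type copper and 537 ± 18.8 in wild type untreated cells (SD, n = 3 each). SLC39A14 made up 26.0 ± 2.44% of that sum in KO copper, 33.6 ± 8.05% in KO untreated, 23.4 ± 7.53% in wild type copper and 44.0 ± 1.02% in wild type untreated cells. It was the highest of the 7 in every untreated wild type library.

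SLC39A14 (ZIP14) carries zinc, iron and manganese into hepatocytes and is known to be induced in the acute-phase response. It had 48.8, 65.7 and 53.7 CPM in KO copper libraries, against 131, 137 and 167 CPM in KO untreated libraries. In wild type cells the levels were 58.2, 69.3 and 102 CPM with copper, against 229, 242 and 238 CPM in wild type untreated libraries. Copper and untreated libraries were well separated in both lines, and KO untreated libraries lay below all wild type untreated libraries. With copper SLC39A14 fell by 1.25 ± 0.22 in KO cells (adjusted p = 0.0014) and by 1.60 ± 0.22 in wild type cells (0.00073). Both falls held without any 1 library and without the libraries that stood apart (-1.40, adjusted p = 1.9e-08, in KO cells and -1.39, 4.6e-10, in wild type cells).

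Untreated KO cells had less SLC39A14 than untreated wild type cells, by -0.83 ± 0.21 (adjusted p = 0.013), and this too held without any 1 library. In copper the line difference was -0.49 ± 0.22 (0.16), and it was called without KO untreated replicate 3 (-0.54, 0.040) and without the libraries that stood apart (-0.71, 0.00024). The order of the means was 236 ± 6.60 CPM in wild type untreated, 145 ± 19.4 in KO untreated, 76.6 ± 22.9 in wild type copper and 56.1 ± 8.71 in KO copper cells, and the last pair overlapped. The summed hepatocyte and HepG2 markers had the same highest and lowest groups, with KO untreated and wild type copper close to each other. Their part in the SLC39A14 difference was not tested.

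SLC39A4 (ZIP4), a plasma membrane importer known from intestinal zinc uptake and mutated in acrodermatitis enteropathica, was lower in copper in wild type cells. It had 26.4, 16.3 and 13.5 CPM in KO copper libraries, against 24.9, 14.3 and 44.6 CPM in KO untreated libraries, which overlap. In wild type cells the levels were 9.61, 17.4 and 20.1 CPM with copper, against 35.3, 52.5 and 34.3 CPM in wild type untreated libraries, with no overlap. The log2 fold change was -0.49 ± 0.40 in KO cells (adjusted p = 0.35) and -1.33 ± 0.39 in wild type cells (0.039). The wild type call ended in 8 of the fits that left out 1 library, those without any wild type untreated or wild type copper replicate or KO copper replicate 2 or 3 (0.051 to 0.16). In the fit without the libraries that stood apart SLC39A4 fell by 1.05 in KO cells (0.0063) and by 1.05 in wild type cells (0.0024). The line differences were 0.22 in copper (0.76) and -0.63 in untreated cells (0.22), and the untreated one was called at -1.05 (0.023) without KO untreated replicate 3.

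SLC39A5 (ZIP5) is a zinc importer of hepatocytes, pancreas and intestine that sits on the basolateral membrane. It had 16.4, 16.3 and 15.5 CPM in KO copper libraries, against 31.2, 17.4 and 55.8 CPM in KO untreated libraries. The wild type line had 24.6, 30.9 and 27.1 CPM in copper libraries, against 59.6, 70.3 and 71.0 CPM in wild type untreated libraries. No pair of groups that differ in copper alone or in line alone overlapped, but KO untreated replicate 2, at 17.4 CPM, lay close to the KO copper libraries. With copper SLC39A5 fell by 1.03 ± 0.31 in KO cells (adjusted p = 0.022) and by 1.25 ± 0.29 in wild type cells (0.014). Untreated KO cells were lower than untreated wild type cells by -1.03 ± 0.29 (0.019). In copper the line difference was -0.81 ± 0.31 (0.099).

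The SLC39A5 calls were near the threshold in several fits. The KO copper call ended without KO untreated replicate 3 or any KO copper replicate (adjusted p = 0.058 to 0.082), and the wild type copper call without wild type untreated replicate 2 or 3 (0.054 to 0.057). With the compared groups alone in the fit the KO copper call and the untreated line difference ended (0.11 and 0.10), and the line difference in copper was called (0.012), as it was without KO untreated replicate 2 (0.024) or 3 (0.0068). The untreated line difference ended without wild type untreated replicate 2 or 3 or KO untreated replicate 1 (0.057 to 0.060). Without the libraries that stood apart all 4 were called, at -1.62 (3.0e-08), -1.15 (2.3e-07), -0.46 (0.035) and, between the lines in copper, -0.93 (0.00022). The sources used here give no strand setting for the counting, and the 3′ ends of SLC39A4 and SLC39A5 overlap exons of genes on the opposite strand (AC233992.3 and ANKRD52), so reads of the partners cannot be told apart.

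**Figure D2:**
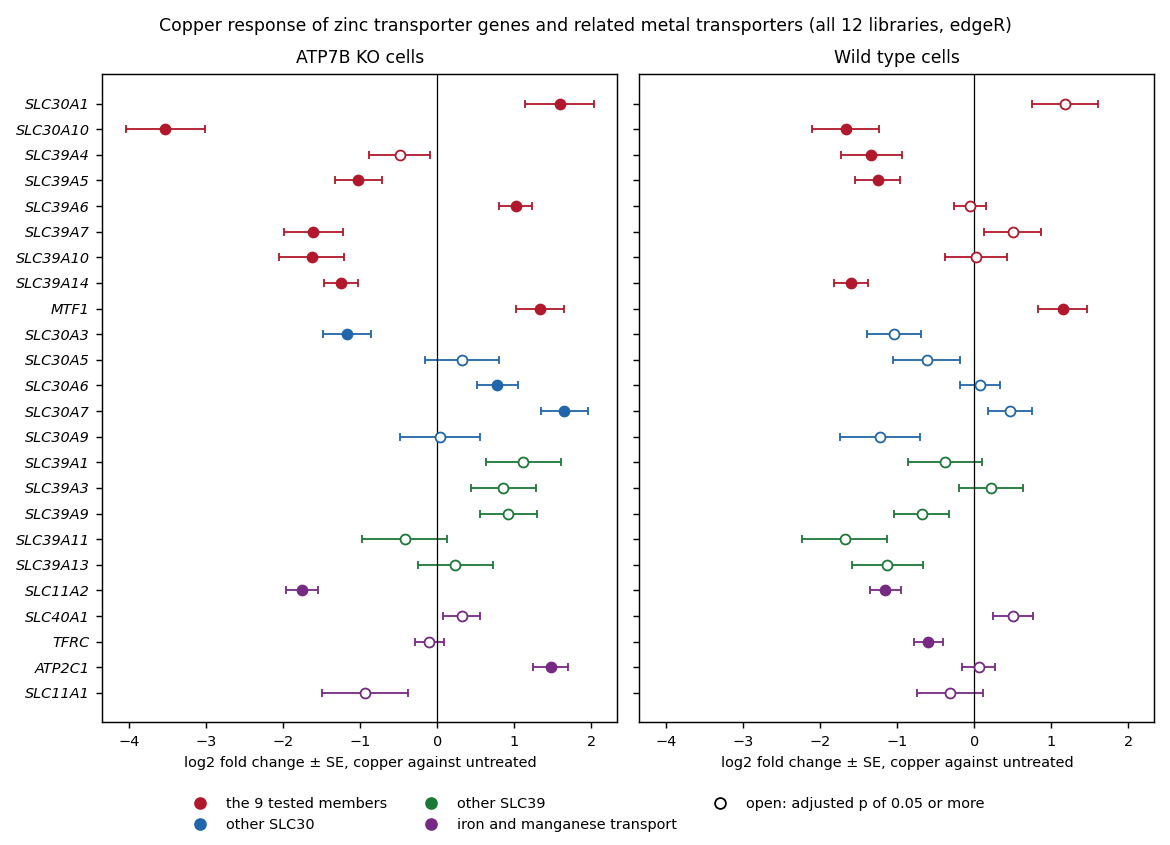
Log2 fold change with copper, with its SE, of the tested members, the other zinc transporters and the iron and manganese transporters, in KO cells (left) and in wild type cells (right). Filled points have an adjusted p under 0.05. SLC30A10, SLC39A5, SLC39A14 and SLC11A2 are filled and left of 0 in both lines, and MTF1 is filled and right of it in both.

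SLC39A6 (ZIP6), a plasma membrane importer that forms a complex with SLC39A10, rose with copper in KO cells. KO copper libraries had 63.0, 69.1 and 67.3 CPM, against 29.1, 29.7 and 47.0 CPM in KO untreated libraries. Wild type copper libraries had 49.6, 71.0 and 70.1 CPM, against 59.8, 66.3 and 74.7 CPM in wild type untreated libraries. The KO untreated libraries were thus below all 9 others, and the remaining groups overlapped. The log2 fold change with copper was 1.02 ± 0.22 in KO cells (adjusted p = 0.0041) and -0.05 ± 0.21 in wild type cells (0.91). Untreated KO cells were lower than untreated wild type cells by -1.04 ± 0.22 (0.0048), whereas in copper the line difference was 0.03 (0.94).

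The SLC39A6 rise in KO cells and its lower level in untreated KO cells held without any 1 library. Without the libraries that stood apart they were 0.68 (adjusted p = 0.0020) and -0.71 (0.0012). The copper effect in KO minus that in wild type cells was 1.07 and missed the threshold (0.055). It was called by DESeq2 (0.97, 0.020) and without KO untreated replicate 3 (1.20, 0.0019), and was 0.54 (0.12) without the libraries that stood apart.

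SLC39A10 (ZIP10), the partner of SLC39A6, fell with copper in KO cells, a call that rested on libraries that stood apart. KO copper libraries had 29.2, 36.4 and 37.0 CPM, against 160.0, 138 and 43.3 CPM in KO untreated libraries. The wild type line had 103, 70.6 and 56.5 CPM in copper libraries, against 84.4, 62.9 and 83.9 CPM in wild type untreated libraries. The high KO untreated values were those of replicates 1 and 2, which stood apart, while replicate 3 lay close to the highest KO copper library. SLC39A10 fell by 1.63 ± 0.42 with copper in KO cells (adjusted p = 0.011) and was at 0.02 ± 0.40 in wild type cells (0.98). Without the libraries that stood apart the KO value was -0.17 (0.55), and the call also ended without KO untreated replicate 1 (0.053), without KO copper replicate 1 (0.0501) and with the compared groups alone in the fit (0.056).

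The line difference of SLC39A10 in untreated cells was 0.45 (adjusted p = 0.40) with all libraries and -1.03 (5.7e-05) without the libraries that stood apart. Without KO untreated replicate 3 it was 0.91 and also passed the threshold (0.0031). Both directions can therefore be had from these libraries. In copper the difference was -1.20 ± 0.42 (0.074), the 3 KO libraries lay below the 3 wild type libraries, and it was called without the libraries that stood apart (-0.98, 9.3e-06), by DESeq2 (0.043), without the filter on low counts (0.0014), with the copper groups alone in the fit (0.0067) and without KO untreated replicate 3 (0.00059). The copper effect in KO minus that in wild type cells was -1.65 (0.089). It was called by DESeq2 (-1.75, 0.042), without the filter (-1.67, 0.0023) and without KO untreated replicate 3 (-2.16, 6.8e-05), and was 0.05 (0.93) without the libraries that stood apart.

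SLC39A7 (ZIP7) releases zinc from the endoplasmic reticulum and Golgi into the cytosol. KO copper libraries had 20.7, 25.1 and 24.3 CPM, against 111, 84.0 and 36.0 CPM in KO untreated libraries. Wild type copper libraries had 93.4, 63.2 and 45.7 CPM, against 48.2, 45.4 and 51.9 CPM in wild type untreated libraries. The KO copper libraries were below all 9 others. As with SLC39A10, the values of 111, 84.0 and 93.4 CPM belonged to the libraries that stood apart.

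SLC39A7 fell by 1.61 ± 0.39 with copper in KO cells (adjusted p = 0.0082) and was at 0.50 ± 0.37 in wild type cells (0.39). The copper effect in KO minus that in wild type cells was -2.11 ± 0.53 (0.045), the single member for which this difference passed the threshold. It lost the call in 10 of the 12 fits without 1 library (0.078 to 0.12), all but those without wild type copper replicate 3 or KO untreated replicate 3, and by limma voom (0.072). Without the libraries that stood apart the fall in KO cells was -0.45 (0.094) and the difference of effects -0.67 (0.11). The level of SLC39A7 in KO cells below that in wild type cells in copper was -1.56 ± 0.39 (0.019), and -1.30 (1.3e-07) without those libraries. That call ended without wild type copper replicate 1 or any KO copper replicate (0.060 to 0.083). In untreated cells the line difference was 0.54 (0.27), was 0.97 (0.0036) without KO untreated replicate 3 and turned to -0.63 (0.012) without the libraries that stood apart.

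SLC39A8 (ZIP8), a relative of SLC39A14 that also carries manganese and cadmium, was near the limit of detection. It had 0, 1 and 0 counts in KO copper libraries, against 6, 10 and 0 in KO untreated libraries, and 3, 1 and 0 counts in wild type copper libraries, against 1, 1 and 2 in wild type untreated libraries. All 16 counts in KO untreated cells were in the pair of libraries that stood apart, and replicate 3 had none, which allows up to 0.915 CPM. The ratio of pooled CPM was 0.0462 for KO copper over KO untreated (95% exact interval 0.0011 to 0.297) and 7.85 for KO untreated over wild type untreated (2.53 to 32.3). It was 1.66 for wild type copper over untreated (0.309 to 8.89) and 0.219 for KO over wild type in copper (0.00445 to 2.21). These intervals cover counting error only. When the filter on low counts was dropped, SLC39A8 was called lower with copper in KO cells, at -4.45 (adjusted p = 0.0028), and higher in KO than in wild type untreated cells, at 3.19 (0.012). The copper effect in KO minus that in wild type cells was then also called, at -5.16 (0.048).

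MTF1, the transcription factor that senses zinc, rose with copper in both lines. KO copper libraries had 28.8, 36.8 and 27.1 CPM, against 8.31, 17.4 and 14.6 CPM in KO untreated libraries. Wild type copper libraries had 22.4, 15.7 and 12.01 CPM, against 8.17, 7.83 and 6.74 CPM in wild type untreated libraries. Copper and untreated libraries did not overlap in either line, and within each treatment every KO library was above every wild type library, narrowly so in untreated cells (8.31 against 8.17 CPM). MTF1 rose by 1.33 ± 0.31 in KO cells (adjusted p = 0.0070) and by 1.15 ± 0.31 in wild type cells (0.029). The rise in KO cells held without any 1 library, at most at 0.032, and was 1.25 (0.00030) without the libraries that stood apart. The rise in wild type cells lost its call in 5 of the fits without 1 library, namely when any wild type untreated replicate, wild type copper replicate 1 or wild type copper replicate 2 was dropped (0.071 to 0.11), and was 0.91 (0.0057) without the libraries that stood apart.

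MTF1 means ran from 30.9 ± 5.20 CPM in KO copper through 16.7 ± 5.28 in wild type copper and 13.5 ± 4.66 in KO untreated to 7.58 ± 0.750 in wild type untreated cells (SD, n = 3 each), the middle pair overlapping. The line difference was 0.86 ± 0.30 in copper (adjusted p = 0.073) and 0.68 ± 0.33 in untreated cells (0.13). In copper it was called by DESeq2 (0.046), by limma voom (0.044), with the copper groups alone in the fit (0.049), without wild type copper replicate 1 (0.044), KO untreated replicate 1 (0.044) or KO untreated replicate 3 (0.028), and without the libraries that stood apart (1.08, 0.00024). In untreated cells it was 0.74 (0.056) without those libraries.

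**Figure D3:**
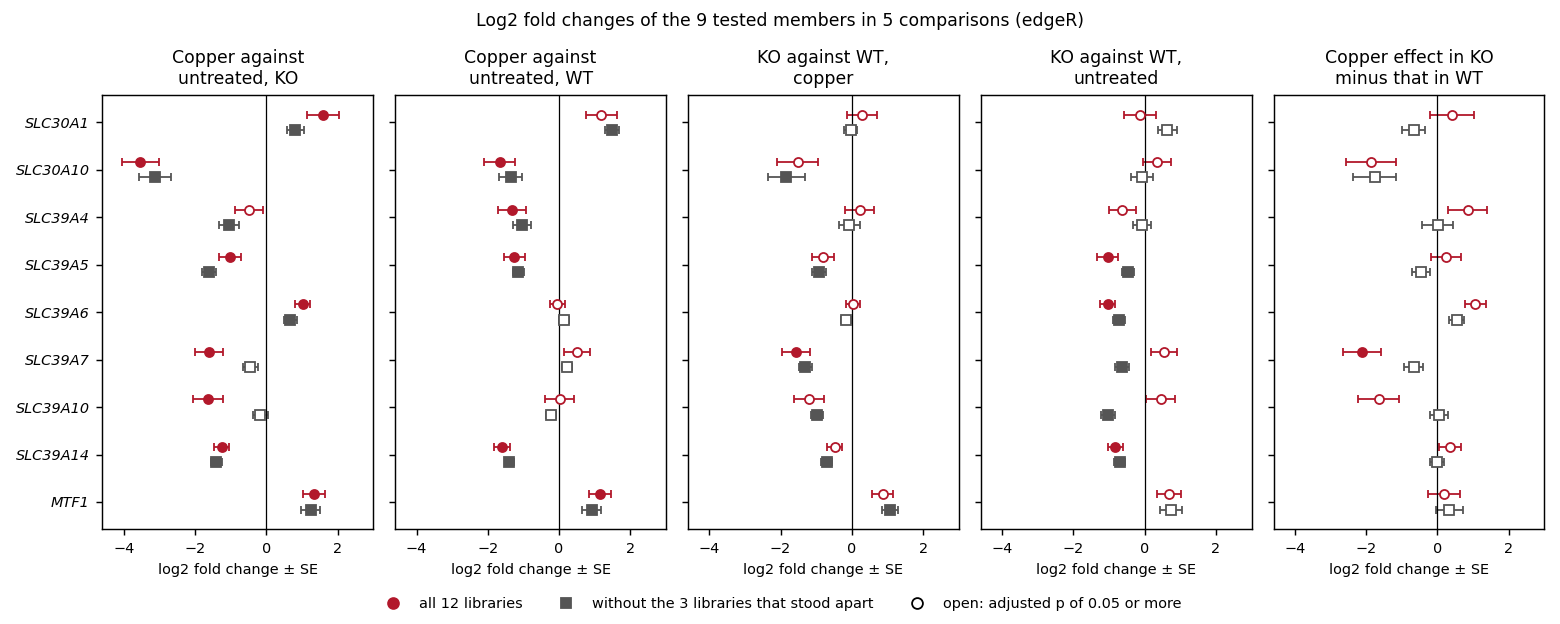
Log2 fold change with its SE of the 9 tested genes in copper against untreated cells of each line, in KO against wild type cells of each treatment and in the difference of the copper effects, with all 12 libraries (circles) and without the 3 that stood apart (squares). Filled symbols have an adjusted p under 0.05, and circle and square lie close for SLC39A14 and MTF1 with copper in KO cells and far from each other for SLC39A7 and SLC39A10.

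The metallothioneins, targets of MTF1, were read beside it. Of 13 genes 10 were tested. With copper all 10 rose in KO cells and 9 rose in wild type cells, with a median log2 fold change of 5.84 and 6.10, against 0.01 and -0.03 over all genes. Of all tested genes 15.2% rose in KO cells and 8.23% in wild type cells. With the genes that had no untreated counts set at their lower bound the medians were 5.52 and 5.78. MT1X, whose promoter is printed above, had 141, 145 and 143 CPM in KO copper libraries, against 5.54, 1.02 and 4.27 CPM in KO untreated libraries. Wild type copper libraries had 274, 287 and 272 CPM of MT1X, against 5.01, 3.13 and 3.65 CPM in wild type untreated libraries. In copper MT1X was lower in KO than in wild type cells (log2 difference -0.99 ± 0.24, adjusted p = 0.017). Over the 10 tested metallothioneins 1 was higher and 1 lower, where 5.77% of all genes were higher and 8.03% lower. The differences ran from -0.99 to 1.88 with a median of -0.10. Without the libraries that stood apart, more of the 10 were called lower than higher. The summed level of the metallothioneins in copper was 17700 to 20070 CPM in KO libraries, against 7765 to 30110 CPM in wild type libraries, which overlap. In untreated cells the sum was 104.6, 66.6 and 802.8 CPM in KO libraries, against 1047 to 1150 CPM in wild type libraries. The lowest sums, 104.6 and 66.6 CPM in KO untreated and 7765 CPM in wild type copper cells, were those of the libraries that stood apart. Metallothionein copies are similar in sequence, so levels of single members are uncertain.

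Among the other SLC30 exporters 2 rose and 1 fell with copper in KO cells, where 33.7% of all genes changed. Of 8 genes 5 were tested, SLC30A4 and SLC30A8 being at 0 in every library. SLC30A7 (ZnT7), which loads zinc into the Golgi, had 29.6, 23.0 and 39.0 CPM in KO copper libraries, against 6.93, 7.17 and 15.6 CPM in KO untreated libraries, with 20.3, 17.0 and 20.1 CPM in wild type copper and 13.4, 14.4 and 14.6 CPM in wild type untreated libraries. It rose by 1.65 ± 0.30 in KO cells (adjusted p = 0.0018) and was at 0.46 ± 0.29 in wild type cells (0.30). SLC30A6, which forms a complex with SLC30A5 in the secretory pathway, rose in KO cells by 0.78 ± 0.27 (0.041), a call that ended in 9 of the fits without 1 library (0.057 to 0.13) by DESeq2 (0.056), without the filter (0.21), with the compared groups alone (0.13) and without the libraries that stood apart (0.21). SLC30A3, known from synaptic vesicles, fell in KO cells by 1.18 ± 0.31 (0.013) and was higher in KO than in wild type untreated cells by 1.26 ± 0.30 (0.0098). The KO copper call ended without KO copper replicate 2 (0.061) or 3 (0.059) and the untreated one without wild type untreated replicate 1 (0.051), and both ended with the compared groups alone in the fit (0.071 and 0.053). SLC30A3 averaged 8.59 CPM in KO copper, 20.7 CPM in KO untreated, 3.88 CPM in wild type copper and 8.12 CPM in wild type untreated cells.

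In wild type cells 0 of the 5 passed the threshold with copper by edgeR, DESeq2 or limma voom, and 2 had an unadjusted p under 0.05. Of all genes 14.9% passed there by edgeR, and their share with an unadjusted p under 0.05 was not computed. The median log2 fold change of the 5 was 0.32 in KO cells and -0.62 in wild type cells. Between the lines 0 passed in copper (2 had an unadjusted p under 0.05, and DESeq2 called 0), and SLC30A3 alone did in untreated cells. Of all genes 13.8% passed in copper and 31.9% in untreated cells. The fit without the libraries that stood apart had replicate 3 alone for KO untreated cells, so the number of its calls is not given here. That group's mean does not enter the copper effect in wild type cells or the line difference in copper. For each of these, that fit did call some of the 5 genes. Those calls were downward for the copper effect and upward in KO for the line difference. The 0 calls above come from fits to all 12 libraries and do not show that these genes were unchanged.

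Of the 7 other SLC39 importers 5 were tested, SLC39A2 and SLC39A12 being at 0 in every library. By edgeR 0 passed the threshold in the 5 comparisons, where 4.93% to 33.7% of all genes did. With copper 2 of 5 had an unadjusted p under 0.05 in each line. DESeq2 called 0 in KO cells (4193 of all genes) and 1 lower in wild type cells (2116). Between the lines 1 of 5 had an unadjusted p under 0.05 in copper and 2 did in untreated cells. There DESeq2 called 0 (2022 of all genes) and 1 lower (4082). For the difference of copper effects 2 had an unadjusted p under 0.05 and DESeq2 called 1 higher (1831 of all genes in either direction). No share of all genes with an unadjusted p under 0.05 was computed. Median log2 fold changes with copper were 0.86 in KO cells and -0.68 in wild type cells. SLC39A11 was at -0.42 (adjusted p = 0.57) with copper in KO cells and at -1.68 (0.058) in wild type cells. Without the libraries that stood apart it was at -1.46 in KO cells and -1.35 in wild type cells, and it is named after these values were seen. SLC39A11 was not the only gene of the 5 to pass the threshold in that fit.

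SLC39A14 also carries manganese and iron, and SLC30A10 exports manganese, so 5 transporters of these metals were read beside them. Those named here were chosen after their values were seen. SLC11A2 (DMT1), which moves ferrous iron and manganese into the cytosol, had 26.4, 32.7 and 28.3 CPM in KO copper libraries, against 113, 122 and 84.5 CPM in KO untreated libraries. Wild type copper libraries had 44.3, 51.0 and 54.2 CPM, against 119.9, 108 and 111 CPM in wild type untreated libraries. It fell by 1.76 ± 0.21 in KO cells (adjusted p = 0.00014) and by 1.16 ± 0.20 in wild type cells (0.0031), the same direction as SLC39A14 and SLC30A10 in each line. ATP2C1, the calcium and manganese pump of the Golgi, rose in KO cells by 1.48 ± 0.23 (0.00067) and was at 0.06 in wild type cells (0.89), and its copper effects differed between the lines by 1.42 ± 0.31 (0.038). That difference lost its call without any of 10 libraries (0.065 to 0.12) and was 1.04 (0.016) without the libraries that stood apart. SLC40A1 (ferroportin), the iron exporter, did not pass the threshold with copper but was higher in KO than in wild type cells by 1.36 ± 0.25 in copper (0.0042) and 1.54 ± 0.25 in untreated cells (0.0014). Of the 5 genes 1 rose and 1 fell with copper in KO cells, where 33.7% of all genes changed, and 0 rose and 2 fell in wild type cells, where 14.9% did. Between the lines 1 was higher and 1 lower in KO cells in copper, where 13.8% of all genes differed. In untreated cells 1 was higher and 2 were lower, where 31.9% did. SLC40A1 was the higher gene in both, and those that were lower are not given here.

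Genes whose log2 CPM ran most closely with that of a member over the 12 libraries are given as a description, from 9660 genes with a symbol and a mean of at least 5 CPM. For SLC30A1 they were MT-ND4L (Pearson r = 0.973), DUSP13 (0.972) and H2BC21 (0.970). For SLC39A10 they were PTBP1 (0.977), KTN1 (0.974) and RPL41 (0.969). For SLC39A14 they were GLUD1 (0.980), LEAP2 (0.975) and FAXDC2 (0.973), and for MTF1 they were TPM3 (0.974), DYNC1H1 (0.955) and SP140 (0.952). Over the 9 libraries without those that stood apart these 12 values were 0.937 to 0.989. The values share libraries, depth and the 4 groups, and were picked as the highest of many.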

How the data were processed

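Total RNA (100 ng per sample) was made into 3′ tag libraries (QuantSeq) and sequenced on a NextSeq500 with single-end reads of 75 bp, per the labels' protocols. The authors deposited raw read counts per gene, 1 column per library, made with STAR 2.3.0 and HTSeq on the hg19 build per the submitters' processing notes. The sources used here give no annotation release or strand setting. Without molecular identifiers, PCR copies cannot be told from separate molecules.

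Symbols from the reference name tables and GENCODE v29 (names alone) matched 45776 of the 47634 IDs, or 99.5% of the counts. No hg19 genome was used, so coordinates are those of the RefSeq promoter table (GRCh38.p14). Tests used the quasi-likelihood method of edgeR 4.0.16 (R 4.3.3, robust option). filterByExpr kept 11051 genes, TMM factors scaled the libraries, and the 4 group means were fitted to all 12 libraries with a shared spread (biological coefficient of variation 29.1%). Within each line copper was set against untreated, within each treatment KO was set against wild type, and the fifth comparison was the copper effect in KO minus that in wild type cells. Adjusted p is Benjamini-Hochberg over all tested genes, called at 0.05. The steps were tested on simulated data.

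Alternatives were relative log expression factors, no filter, DESeq2 1.42.0, limma voom 3.58.1, a replicate block, the compared groups alone, and leaving out each library. Libraries are labelled as biological replicates and nothing says what separates them, so p-values measure the spread between these libraries. Replicate numbers were not used to pair the groups in the main fit. Of 18 same-numbered pairs 2 had deviations correlated over 0.1 (r = -0.22 to 0.61). Both were between wild type copper and KO untreated libraries (0.49 and 0.61), the groups that hold the libraries that stood apart. With 3 libraries per group these values cannot settle whether the numbers pair the groups. All 10 genes are named with every library's value. Other SLC30 and SLC39 genes past the threshold, metallothioneins, ALB, ATP7B and the 3 genes most like each of SLC30A1, SLC39A10, SLC39A14 and MTF1 may also be named. The genes and lists were chosen with earlier results of these data known.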

Additional observations from a re-analysis of the deposited data

Results flagged for a closer look

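SLC39A7 was flagged because its copper effect differed between the lines by a test of the difference itself, at -2.11 on the log2 scale (KO minus wild type, SE 0.53, edgeR adjusted p = 0.045). Its 3 KO copper libraries had 20.7 to 25.1 CPM, against 36.0 to 111 CPM in KO untreated libraries. Its 3 wild type copper libraries had 45.7 to 93.4 CPM, against 45.4 to 51.9 CPM in wild type untreated libraries. Without the 3 libraries that stood apart the difference was -0.67 (0.11).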

How the results depend on the processing

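Across the 5 comparisons, the 9 tested genes kept direction and side of the threshold in 696 fold changes under the other settings, lost a call in 53, gained one in 31 and changed sign in 20. No scaling moved the median of all genes by over 0.1.

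Leaving out each library in turn gave 5 to 8 of the 9 genes called (2373 to 6635 of all genes) for copper in KO cells, 1 to 6 (736 to 3783) for copper in wild type cells, 0 to 6 (673 to 3563) for KO against wild type cells in copper, 2 to 8 (2058 to 6738) for untreated cells and 0 to 6 (13 to 5888) for the difference of copper effects. The highest counts of all genes came without KO untreated replicate 3. Values that changed sign in such fits were SLC39A6 (-0.14 to 0.082) and SLC39A10 (-0.28 to 0.19) for copper in wild type cells, SLC39A4 (-0.14 to 0.45) and SLC39A6 (-0.12 to 0.11) between the lines in copper, SLC30A1 (-1.10 to 0.23) and SLC30A10 (-0.033 to 0.58) between untreated lines, and SLC39A5 (-0.10 to 0.60) and MTF1 (-0.023 to 0.42) for the difference of copper effects.

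With the compared groups alone in the fit, 5 of the genes (1853 of all) were called for copper in KO cells, 3044 of all genes for copper in wild type cells, 4 (2695) between the lines in copper and 1421 of all genes between untreated lines. SLC39A6 was then 0.0076 for copper in wild type cells and -0.025 between the lines in copper. In copper the lines differed for 2 genes without the filter, 3 by DESeq2 and 2 by limma voom, and SLC39A6 was -0.027 without the filter. The difference of copper effects had 3 calls (2366 of all genes) without the filter, 1 of them SLC39A8, which the other fits do not test. It had 3 (1831) by DESeq2 and 0 (160) by limma voom, against 1 (545). SLC39A10 was -0.023 by limma voom for copper in wild type cells. The higher share of calls was 45.0% against 53.2% by limma voom for copper in KO cells, and for the difference of copper effects 25.5% against 44.7% without the filter and 42.5% by limma voom. The cause of these shifts was not tested.

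With the replicate block 0 of the genes (113 of all) were called for the difference of copper effects, SLC39A7 being at adjusted p = 0.060, SLC39A10 was -0.038 and SLC39A4 lost its call (0.059) for copper in wild type cells. The other member calls stood with the block.

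Without the 3 libraries that stood apart, a choice made after seeing the data, all genes called were 4784 for copper in wild type cells, 4527 between the lines in copper and 1049 for the difference of copper effects. Of the 9 genes 6 were called between the lines in copper, 5 between untreated lines and 0 for the difference of copper effects. Values that changed sign were SLC39A6 (0.14) and SLC39A10 (-0.22) for copper in wild type cells, SLC30A1 (-0.034), SLC39A4 (-0.073) and SLC39A6 (-0.17) between the lines in copper, SLC30A1 (0.64), SLC30A10 (-0.086), SLC39A7 (-0.63) and SLC39A10 (-1.03) between untreated lines, and SLC30A1 (-0.67), SLC39A5 (-0.47), SLC39A10 (0.052) and SLC39A14 (-0.010) for the difference of copper effects. Depth limits SLC39A8 and SLC30A10 most, with 1 and 11 counts in KO copper cells.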
